A study of Gallus gallus with 24 samples.

Results

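Netrin 1 and its receptors were followed in the left and right gonads of female Leghorn chicken embryos. The set was defined by 7 gene symbols, namely NTN1, which encodes the ligand, and the receptor genes DCC, NEO1, UNC5A, UNC5B, UNC5C and UNC5D. Of these, 6 were found among the 24154 genes of the count table and all 6 passed the filter on low counts, which left 16694 genes for testing. DCC was not analysed here, so the receptors described are NEO1 and the 4 UNC5 genes. Poly(A) RNA was sequenced from left and right gonads collected separately at embryonic day (E) 5, 6.5, 8 and 9.5, with 3 libraries for each side and stage and 24 in all. All groups were untreated Leghorn female embryos, and no allele or agent is named for any of them. No label tells separate embryos from pools or repeated preparations among the 3 libraries of a group, so p-values measure only how these libraries spread, and that spread may be technical.

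Netrin 1 is a secreted protein related to laminins that guides growing axons and migrating cells. DCC and neogenin (NEO1) mostly mediate attraction towards it, and the UNC5 receptors mediate repulsion, alone or together with DCC. DCC, neogenin and the UNC5 proteins are also called dependence receptors, because without bound ligand they can promote cell death. Hens keep a functional ovary on the left, whereas the right gonad regresses during development. The question of the study was how the gonads of female birds come to develop asymmetrically.

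Library totals ran from 15078282 to 19970859 counts. Levels are given as CPM, which scales the read count of a gene to a common library size, on totals scaled by the trimmed mean of M values (TMM), and they were compared between samples, not between genes, because CPM is not corrected for transcript length. The 11 gonadal identity markers were all found, with summed levels of 1117 to 4983 CPM, and 10 of them had counts in every library. CYP19A1, the aromatase gene, was at 0 in 1 library. Markers of neighbouring tissues were present too. The E8 right library 3 stood apart with 1008 CPM of the liver gene ALB. The other library left out with it in an alternative fit, E6.5 left 3, had 170 CPM, and no other library had over 10.1 CPM.

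NTN1 was low on both sides at E5 and high in the left gonad alone at E8 and E9.5. At E5 it stood at 0.724, 0.886 and 1.72 CPM in the left libraries, against 1.16, 1.42 and 2.36 CPM in the right libraries. At E6.5 the left libraries held 8.56, 9.86 and 20.6 CPM, against 2.46, 1.57 and 5.93 CPM in the right libraries. The sides overlapped at E5, and every left library lay above every right library at E6.5. At E8 the level was 87.7, 104.6 and 86.2 CPM in the left libraries, against 3.15, 3.85 and 1.18 CPM in the right libraries. At E9.5 it was 79.4, 79.2 and 84.3 CPM in the left libraries, against 1.14, 5.53 and 1.90 CPM in the right libraries. The lowest left library at these 2 stages was more than 10 times the highest right one. No overlap with the left side higher was seen in 9.48% of all genes tested at E6.5, 18.1% at E8 and 10.4% at E9.5. NTN1 counts ran from 12 to 1685, so the right libraries and all E5 libraries rest on few reads.

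**Figure D1:**
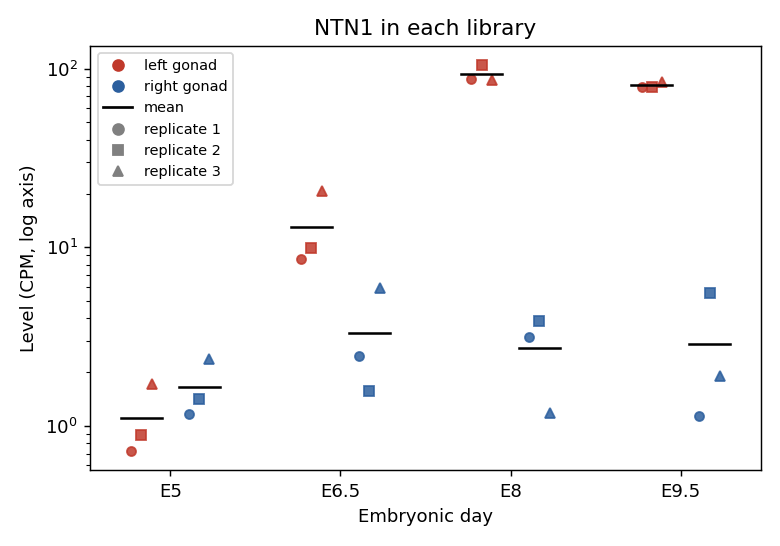
NTN1 level in CPM on a log axis at the 4 embryonic days, for left (red) and right (blue) gonads. Symbols are single libraries and bars are means of 3; the left means were 1.11, 13.0, 92.8 and 80.9 CPM from E5 to E9.5 and the right means 1.65, 3.32, 2.73 and 2.86 CPM.

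Means over 3 libraries were 92.8 ± 10.2 CPM in left and 2.73 ± 1.38 CPM in right gonads at E8 (SD, n = 3 each). At E9.5 they were 80.9 ± 2.88 CPM in left and 2.86 ± 2.35 CPM in right gonads (SD, n = 3 each). The fitted log2 difference of left over right was -0.57 ± 0.64 (SE) at E5, 1.97 ± 0.50 at E6.5, 5.10 ± 0.54 at E8 and 4.79 ± 0.53 at E9.5. The last 2 values correspond to 34.2-fold and 27.7-fold more NTN1 in the left gonad. Among the 16694 genes, ordered from the most left-sided, NTN1 was number 6 at E8 and number 5 at E9.5. The genes were chosen knowing this difference, so it is described here and not tested. Bulk RNA cannot tell fewer cells of a type from less RNA per cell, which applies to each level given.

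The left gonad carried nearly all of the change over time. Its NTN1 level differed by a log2 of 3.55 ± 0.57 (SE) at E6.5 against E5 and by 2.83 ± 0.47 at E8 against E6.5. From E8 onwards it was level, with -0.20 ± 0.44 at E9.5 against E8. In the right gonad the same steps were 1.0 ± 0.57, -0.29 ± 0.54 and 0.11 ± 0.54. Over the whole course the left gonad had a log2 of 6.19 ± 0.59 at E9.5 against E5, or 72.8-fold, and the right gonad 0.83 ± 0.57. The left-right difference was larger at E9.5 than at E5 by a log2 of 5.36 ± 0.81. These values are descriptions of the pattern by which NTN1 was chosen. E9.5 right library 2 held the highest right NTN1 level of that stage and the largest summed level of mesonephros markers at that stage, 2507 CPM. E6.5 right library 3 was likewise highest in both, with a sum of 3173 CPM. At E5 right library 3 had the most NTN1 but the lowest sum, 736 CPM. At E8 right library 2 had the most NTN1 and right library 1 the largest sum, 2320 CPM. The part of mesonephros tissue in the right NTN1 level was not tested. Without E9.5 right library 2 the left-right log2 at E9.5 was 5.77, the difference against E5 was 6.34, and the right gonad's E9.5 against E5 value changed sign to -0.19. The E6.5 difference was 2.67 without E6.5 right library 3.

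Some summed marker levels of other tissues also differed between the sides, at E5, where the sides overlapped for NTN1, as well as later. Of the 16 adrenal cortex and chromaffin markers 15 were found. At E5 they summed to 280 to 346 CPM in left and 417 to 630 CPM in right libraries, so the right side was higher. By the edgeR test described below, 0 of these 15 markers passed singly at E5, against 2.94% of all genes. Their summed level was 286 to 1188 CPM in left and 210 to 296 CPM in right libraries at E6.5, and 1063 to 2386 CPM in left and 503 to 766 CPM in right libraries at E8. At E9.5 the sum was 1396 to 2266 CPM in left and 836 to 1417 CPM in right libraries, so that the sides overlapped at E6.5 and E9.5. By the same test, 1 of the 15 markers passed as higher on the left at E6.5, 11 at E8 and 3 at E9.5. The shares of all genes that did so were 2.67%, 7.54% and 5.13%, and 0 of the 15 passed as lower. The genes STAR and CYP11A1 in that list are also used by steroid-producing gonadal cells. Of its defining genes, MC2R, the receptor for adrenocorticotropic hormone, was at 2.01, 1.80 and 2.37 CPM in E8 left libraries, against 0, 0.32 and 0.11 CPM in E8 right libraries. At E9.5, where the sums overlapped, MC2R was at 1.61, 1.54 and 2.22 CPM in left libraries, against 0.25, 0 and 0.13 CPM in right libraries. CHGA, a protein of secretory granules in chromaffin cells and neurons, stood at 138, 337 and 530 CPM in the E8 left libraries, against 35.7, 26.2 and 44.1 CPM in the E8 right libraries. Within the left side NTN1 was highest in library 2 at E8. At E6.5 and E9.5 it was highest in left library 3, which held the most CHGA of its group, and at E6.5 the 3 left libraries stood in the same order for both genes. In the list, MC2R was at 0 in 2 libraries, and MRAP and SLC18A1 were at 0 in 5 each.

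Mesonephros markers, of which 14 of 18 were found, went the other way. They summed to 645 to 724 CPM in left and 763 to 2320 CPM in right libraries at E8, and to 529 to 736 CPM in left and 1015 to 2507 CPM in right libraries at E9.5. In that list AQP2 was at 0 in 16 libraries, and HNF4A and SLC34A1 were at 0 in 1 each. The 13 neural and glial markers found, of 15, none of them at 0 in any library, summed to 640 to 1151 CPM in left and 230 to 339 CPM in right libraries at E8. At E9.5 they overlapped, with 180 to 629 CPM in left and 229 to 313 CPM in right libraries. The 12 liver markers, all found, summed to 553 to 774 CPM in left and 1338 to 3174 CPM in right libraries at E8, with APOH at 0 in 9 libraries, HRG in 8, AHSG in 7 and FGA in 1. Of these, APOA1 alone ran from 497 to 1963 CPM over all libraries. ALB had 4.67 and 4.24 CPM in E8 right libraries 1 and 2, against 3.17, 4.41 and 4.34 CPM in the left ones. Its high E8 level was in right library 3 alone. The 10 markers of the Müllerian duct and surface epithelium, all found, summed to 1191 to 1377 CPM in left and 774 to 990 CPM in right libraries at E8, with UPK3B at 0 in 21 libraries and WNT7A in 1. At E5 they summed to 1401 to 1864 CPM in left and 1116 to 1240 CPM in right libraries. Adjusted for the adrenal and chromaffin score, the NTN1 log2 difference was 4.83 at E8 and 4.64 at E9.5. Adjusted for the mesonephros score, it was 5.47 at E8 and 5.38 at E9.5. Without the 2 libraries holding liver transcripts it was 4.75 at E8. The adrenal and chromaffin sums did not overlap between the sides at E8, nor did the mesonephros sums at E8 and E9.5. The score in these fits was the mean log2 CPM of a list, not its sum. At E9.5, where the adrenal and chromaffin sums overlapped, the median log2 difference of that list was 1.53. CHGA was then at 37.5, 87.0 and 220 CPM in left libraries, against 28.4, 30.0 and 31.6 CPM in right libraries. Values adjusted for either score at E8 and E9.5 therefore cannot separate side from tissue makeup, for NTN1 or any gene below.

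Among the receptors, UNC5A was the one with more transcript on the left. UNC5A encodes a receptor through which netrin 1 repels axons. At E5 it was at 8.08, 7.91 and 8.77 CPM in left libraries, against 6.72, 7.64 and 7.22 CPM in right libraries. At E6.5 the left libraries had 5.87, 6.51 and 11.1 CPM, against 7.0, 5.42 and 5.08 CPM in the right libraries. These 2 stages differed little, and the sides overlapped at E6.5. At E8 UNC5A stood at 16.9, 17.4 and 18.8 CPM in left libraries, against 10.3, 9.25 and 12.02 CPM in right libraries. At E9.5 the left libraries held 15.6, 19.6 and 23.1 CPM, against 5.70, 8.30 and 11.8 CPM in the right libraries. All left libraries exceeded all right ones at E5, E8 and E9.5. No overlap with the left side higher was seen in 9.31% of all genes tested at E5.

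By edgeR's quasi-likelihood test, with Benjamini-Hochberg adjustment over all genes tested, UNC5A was higher in the left gonad at E8 by a log2 of 0.75 ± 0.24 (SE, adjusted p = 0.039). At E9.5 the difference was 1.18 ± 0.24 (adjusted p = 0.0035), or 2.26-fold. The differences at E5, 0.20 ± 0.24 (adjusted p = 0.90), and at E6.5, 0.42 ± 0.24 (adjusted p = 0.43), did not pass the threshold of 0.05. The E9.5 call held without any one of its 6 libraries (highest adjusted p = 0.018). The E8 call was lost without left library 1, 2 or 3 or right library 1 or 2, with adjusted p-values of 0.075, 0.084, 0.096, 0.10 and 0.13, at log2 values of 0.68 to 0.80. The E8 difference was 0.73 (adjusted p = 0.078) after adjustment for the mesonephros score. It was 0.09 (adjusted p = 0.88) after adjustment for the adrenal and chromaffin score, and that at E9.5 was then 0.81 (adjusted p = 0.033). The sums of both marker lists were apart between the sides at E8, so these E8 fits cannot separate side from tissue makeup. At E9.5 the adrenal and chromaffin sums overlapped, but CHGA and MC2R of that list did not. The adjusted E9.5 value therefore cannot separate them either.

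Over time UNC5A rose on both sides between E6.5 and E8. The log2 change was 1.17 ± 0.24 (SE, adjusted p = 0.0019) in the left gonad, where 9.34% of all genes tested rose at that step. In the right gonad it was 0.85 ± 0.24 (adjusted p = 0.017), where 10.8% rose. The right call was lost without E6.5 right library 2 (adjusted p = 0.082), E6.5 right library 3 (0.081) or E8 right library 3 (0.099), and without the 2 libraries holding liver transcripts (0.055). After adjustment for the adrenal and chromaffin score the left step was 0.63 (adjusted p = 0.12). At E9.5 against E5, UNC5A was higher in the left gonad by 1.24 ± 0.24 (adjusted p = 3.9e-04), but after that adjustment by 0.67 (adjusted p = 0.065). In the right gonad the value was 0.25 ± 0.24 (adjusted p = 0.43). The left-right difference at E9.5 against that at E5 was 0.98 ± 0.34 (95% interval 0.28 to 1.68, adjusted p = 0.15), which did not pass, as for the other 4 receptors, while 2.20% of all genes did. It passed without E9.5 right library 3, at 1.27 (adjusted p = 0.048).

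UNC5D, a UNC5 receptor that also binds the FLRT adhesion proteins, showed no difference that passed the test. At E6.5 it was at 3.79, 6.51 and 9.08 CPM in left libraries, against 3.62, 4.85 and 5.47 CPM in right libraries. At E8 the left libraries held 5.11, 7.39 and 9.20 CPM, against 6.69, 5.71 and 4.57 CPM in the right libraries. At E9.5 it stood at 2.32, 4.01 and 9.19 CPM in left libraries, against 5.13, 6.27 and 5.03 CPM in right libraries. The left libraries spread widely and overlapped the right ones at every stage. At E5 the levels were 4.10, 3.23 and 4.96 CPM in left and 7.76, 4.68 and 3.94 CPM in right libraries. The log2 differences were -0.41, 0.48, 0.36 and -0.08 from E5 to E9.5 (SE 0.39 to 0.40, adjusted p 0.60 to 0.92). At E8 the 95% interval ran from -0.46 to 1.17, so a difference of 2-fold on the left side was not excluded at this depth of 39 to 178 counts per library.

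UNC5A and UNC5D were each highest in the left library with the most CHGA at E6.5, E8 and E9.5, and NTN1 was so at E6.5 and E9.5 but not at E8. At E9.5 the left libraries held 37.5, 87.0 and 220 CPM of CHGA, the order in which both receptors stood. At E6.5 they held 17.1, 52.2 and 247 CPM, again in the receptors' order. UNC5B too was highest in left library 3, which held the most CHGA, with 81.6, 66.8 and 63.2 CPM at E6.5, E8 and E9.5. NEO1 was highest there at E6.5 and E9.5, and UNC5C at E9.5 alone. UNC5B and NEO1 also stood in the CHGA order at E6.5, so the trait was not particular to UNC5A and UNC5D. In the left libraries at E5 neither UNC5A nor UNC5D stood in that order. On the right UNC5A did so at E5, E8 and E9.5 but not at E6.5, and UNC5D at no stage. An order of 3 libraries is coarse, and no share of all genes in that order was taken. The part of the adrenal and chromaffin markers in the receptor values was not tested beyond these adjusted fits. After adjustment UNC5D had log2 differences of -0.14 at E6.5 and -1.10 at E8 (adjusted p = 0.12), opposite in sign to those without adjustment.

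**Figure D2:**
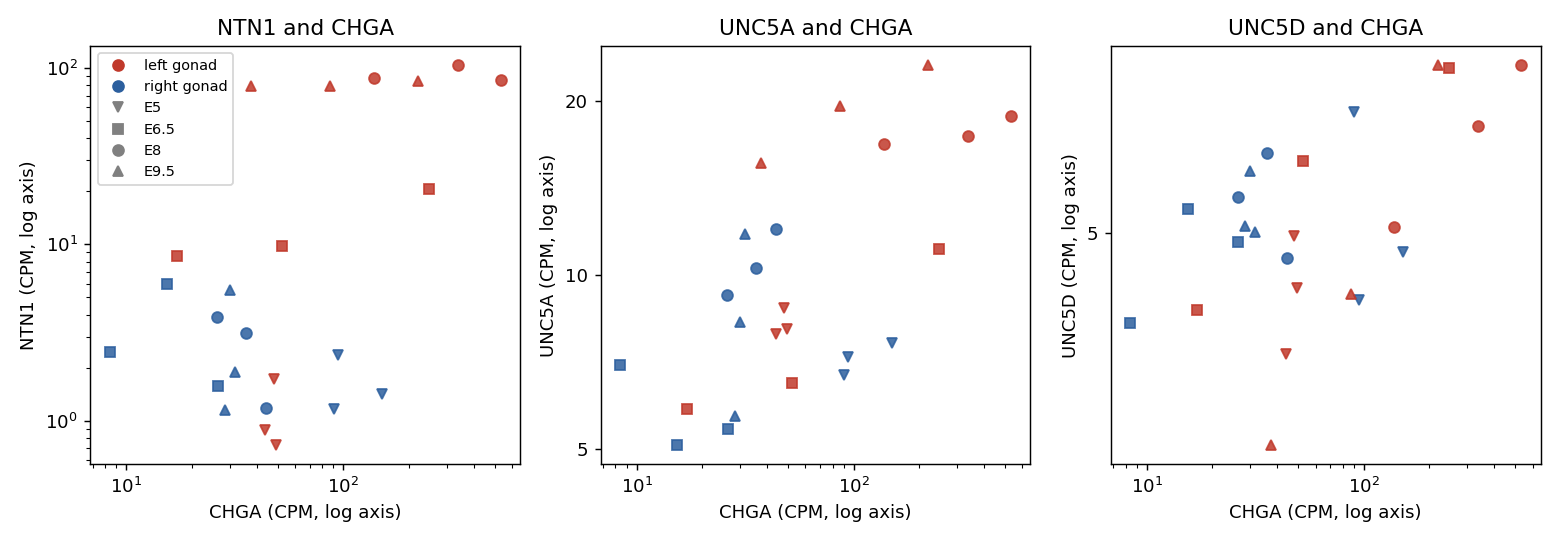
Levels of NTN1, UNC5A and UNC5D against CHGA in the 24 libraries, both in CPM on log axes. Orders are given for left libraries from E6.5 on, and those at E5 did not share them. Colour gives the side and symbol shape the stage; at E6.5 all 3 genes follow the CHGA order of the left libraries, and at E8 and E9.5 the left libraries hold 79.2 to 104.6 CPM of NTN1 over a CHGA range of 37.5 to 530 CPM, while UNC5A and UNC5D follow the CHGA order of the left libraries at both stages.

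UNC5B had a side difference opposite in sign to that of UNC5A at each stage, and it passed the test at E8 alone. From E5 to E9.5 that difference changed by a log2 of -0.01 ± 0.22 (SE). UNC5B is a netrin receptor best known from blood vessels, where it restrains sprouting. At E6.5 it was at 57.4, 76.9 and 81.6 CPM in left libraries, against 92.6, 88.7 and 102.0 CPM in right libraries. At E8 it was at 61.9, 60.4 and 66.8 CPM in left libraries, against 97.2, 122.1 and 85.5 CPM in right libraries. Every left library lay below every right one at E6.5 and E8. No overlap with the left side lower was seen in 6.15% of all genes tested at E6.5 and 21.3% at E8. At E5 the left libraries had 79.2, 65.2 and 86.2 CPM, against 102.6, 85.2 and 105.4 CPM in the right libraries. At E9.5 the left libraries had 58.8, 53.1 and 63.2 CPM, against 58.4, 78.9 and 86.9 CPM in the right libraries. The sides overlapped at E5 and E9.5.

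UNC5B was lower in the left gonad at E8 by a log2 of -0.69 ± 0.16 (SE, adjusted p = 0.0064). The call was lost without E8 right library 2, the highest one, at -0.52 (adjusted p = 0.065). After adjustment for the adrenal and chromaffin score it stood at -0.91 (adjusted p = 0.022). The other stages gave -0.35 ± 0.16 at E5 (adjusted p = 0.35), -0.39 ± 0.16 at E6.5 (adjusted p = 0.22) and -0.36 ± 0.16 at E9.5 (adjusted p = 0.14), with unadjusted p-values under 0.05 in each case. At E9.5 against E5, UNC5B had log2 values of -0.40 ± 0.16 in the left gonad (adjusted p = 0.056) and -0.39 ± 0.16 in the right gonad (adjusted p = 0.057). Both sat at the threshold and passed under several other settings. The 11 endothelium markers found, of 12, none of them at 0 in any library, summed to 708 to 733 CPM in left and 778 to 864 CPM in right libraries at E8. Their part in the UNC5B value was not tested.

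UNC5C, the receptor behind the rostral cerebellar malformation mouse mutant, was highest at E5 on both sides. At E5 it was at 205, 182 and 279 CPM in left libraries, against 293, 230 and 380 CPM in right libraries. At E6.5 the left libraries held 109, 144 and 134 CPM, against 160, 139 and 152 CPM in the right libraries. Every E6.5 library of a side lay below every E5 library of the same side, a pattern seen in 11.2% of all genes on the left and 16.3% on the right. At E8 UNC5C stood at 80.6, 108 and 100.1 CPM in left libraries, against 124, 133 and 122 CPM in right libraries. At E9.5 the left libraries held 129, 114 and 167 CPM, against 136, 112 and 242 CPM in the right libraries. The sides were apart at E8 alone, with the left lower.

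UNC5C fell between E5 and E6.5 by a log2 of -0.78 ± 0.23 in the left gonad (SE, adjusted p = 0.035) and -1.0 ± 0.23 in the right gonad (adjusted p = 0.0057). At that step 4.04% of all genes tested fell in the left gonad and 6.69% in the right gonad. At E9.5 against E5 it was lower by -0.70 ± 0.23 in the left gonad (adjusted p = 0.024) and -0.88 ± 0.23 in the right gonad (adjusted p = 0.0054). The left E6.5 call was lost without E5 left library 1 (adjusted p = 0.065) or 3 (0.18), or without E6.5 left library 1 (0.13), 2 (0.059) or 3 (0.068). It was also lost without the 2 libraries holding liver transcripts (0.079) and in the compared libraries alone (0.053). The left E9.5 call was lost without E5 left library 3 (adjusted p = 0.13) or E9.5 left library 1 (0.068) or 2 (0.11). Both right calls held without any one library, but that at E9.5 was lost in the compared libraries alone (adjusted p = 0.054). The side differences of UNC5C were -0.44, -0.22, -0.39 and -0.26 from E5 to E9.5 (SE 0.23 each, adjusted p 0.28 to 0.72), and none passed. That at E8 passed with the replicate number as a block (-0.40, adjusted p = 0.034) and in the compared libraries alone (-0.37, adjusted p = 0.043).

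NEO1, which encodes neogenin, differed little between sides and stages. Neogenin is also the receptor of the repulsive guidance molecules. Its levels were 145, 144 and 191 CPM in left and 158, 132 and 212 CPM in right libraries at E5, and 134, 188 and 192 CPM in left and 181, 157 and 158 CPM in right libraries at E6.5. They were 119, 137 and 129 CPM in left and 131, 164 and 147 CPM in right libraries at E8, and 153, 145 and 169 CPM in left and 118, 118 and 170 CPM in right libraries at E9.5. The sides overlapped at every stage. The log2 differences of left over right were -0.07, 0.05, -0.20 and 0.21 (SE 0.17 each, adjusted p 0.48 to 0.97). At E8 the 95% interval ran from -0.56 to 0.17 and at E9.5 from -0.16 to 0.57, which leaves out a 2-fold difference either way. No step over time passed either, the largest being -0.42 ± 0.17 at E8 against E6.5 in the left gonad (adjusted p = 0.10).

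**Figure D3:**
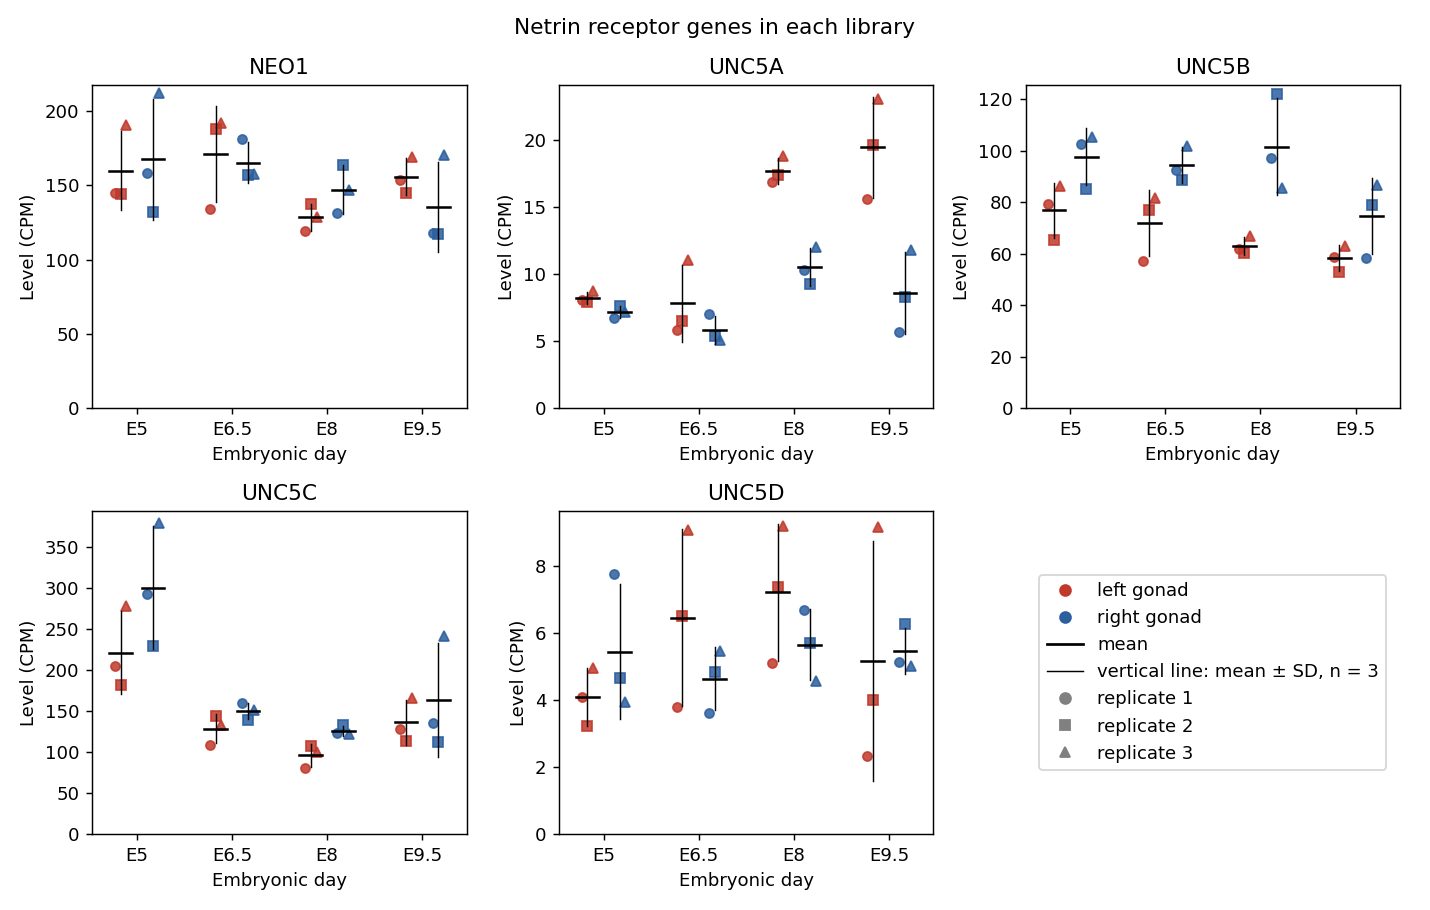
Levels of the 5 receptor genes in CPM for left (red) and right (blue) libraries at the 4 embryonic days. Symbols are single libraries, horizontal bars are means and vertical lines mean ± SD of 3; UNC5A is higher on the left at E8 and E9.5, UNC5B is lower on the left at E8, and UNC5C is highest at E5 on both sides.

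By edgeR's quasi-likelihood test, 2 of the 5 receptors passed at an adjusted p under 0.05 for left against right at E8, where 14.3% of all genes did. They were UNC5A, higher, and UNC5B, lower. At E9.5 UNC5A was the 1 of 5 that passed, against 13.0% of all genes. At E5 and E6.5 0 of 5 passed by edgeR or DESeq2, against 2.94% and 3.24% of all genes, while UNC5B had an unadjusted p of 0.039 at E5 and 0.021 at E6.5. For E9.5 against E5, 2 of 5 passed in the left gonad, UNC5A higher and UNC5C lower, against 34.2% of all genes, and DESeq2 called 3, adding UNC5B. In the right gonad UNC5C was the 1 of 5 that passed, against 37.5% of all genes, and DESeq2 called 2, adding UNC5B. An edgeR F test of whether the left-right difference changed over the 4 stages passed for 0 of 5 receptors, against 2.05% of all genes. A DESeq2 likelihood ratio test of the same question also passed for 0 of 5. UNC5A had an unadjusted p of 0.046 in the edgeR F test (adjusted p = 0.39).

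**Figure D4:**
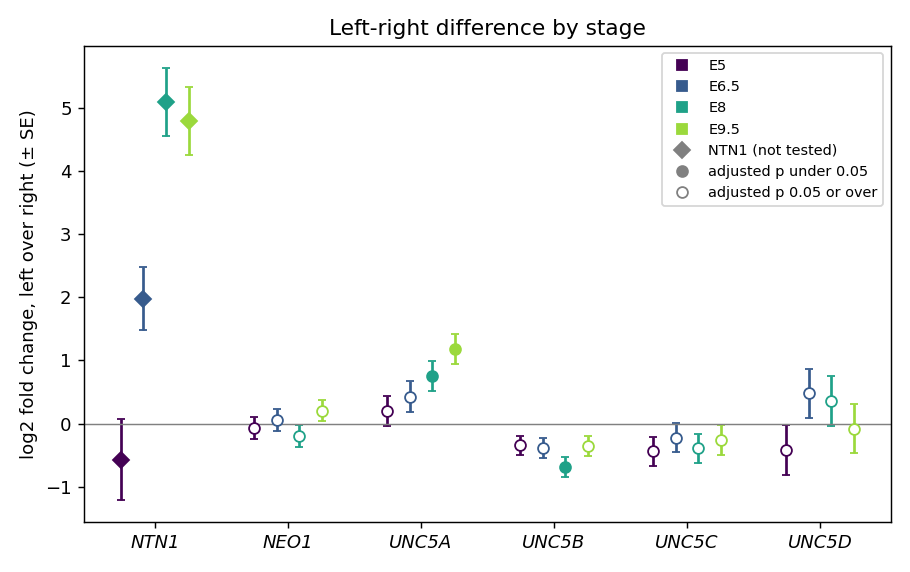
Fitted log2 fold change of left over right for NTN1 and the 5 receptors at E5, E6.5, E8 and E9.5, with SE bars. Diamonds are NTN1, which was not tested, filled circles have an adjusted p under 0.05 and open circles do not; NTN1 reaches 5.10 and 4.79 at E8 and E9.5, while the receptors stay between -0.69 and 1.18.

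Over the 24 libraries the log2 CPM of NTN1 had a Pearson r of 0.76 with UNC5A, 0.26 with UNC5D, -0.14 with NEO1, -0.58 with UNC5B and -0.59 with UNC5C. Over the 8 group means the values were 0.83, 0.41, -0.32, -0.79 and -0.70 in the same order. These are descriptions. The libraries share sides, stages and tissue makeup, so they are not independent points.

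The genes whose level was most like that of NTN1 were LYPD6 (r = 0.957), TOM1L1 (0.940), SHC4 (0.939), IRF1 (0.936), SHISA6 (0.925), DRD4 (0.915), TPSNRL (0.913) and ABCG4 (0.912), over the 24 libraries and among 13500 genes with a symbol. Over the 8 group means the first were SHC4 (0.984), LYPD6 (0.981), TPSNRL (0.973), KIAA1324L (0.973), ABCF2 (0.972), ABCG4 (0.971), ENHO (0.970) and TOM1L1 (0.969). LYPD6 averaged 33.0 ± 3.99 CPM in left and 6.08 ± 1.09 CPM in right gonads at E8 (SD, n = 3 each). At E9.5 it averaged 31.3 ± 4.97 CPM in left and 5.30 ± 0.925 CPM in right gonads (SD, n = 3 each). LYPD6 was picked by its likeness to NTN1 over these same libraries, so its left-sided level follows from that choice. Its gap between the sides was smaller than that of NTN1.

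Of the other netrin genes 4 of 5 names were tested, and none shared the left-sided pattern of NTN1. NTNG1, which encodes a membrane-anchored netrin that does not bind DCC or UNC5 receptors, averaged 25.8 ± 1.39 CPM in left and 32.8 ± 1.26 CPM in right gonads at E8 (SD, n = 3 each). At E9.5 it averaged 22.2 ± 2.89 CPM in left and 30.1 ± 0.0582 CPM in right gonads (SD, n = 3 each). It was the 1 netrin that passed, lower on the left, with a log2 of -0.35 ± 0.12 at E8 (SE, adjusted p = 0.048) and -0.44 ± 0.12 at E9.5 (adjusted p = 0.018). Both values were close to the threshold, and 6.71% of all genes tested passed as lower on the left at E8 and 7.87% at E9.5. The E8 call was lost without any one of its 6 libraries (adjusted p up to 0.22), and that at E9.5 without left library 1 (adjusted p = 0.14) or 2 (0.078) or right library 1 (0.052) or 2 (0.093). At E8 it was also lost with RLE scaling (adjusted p = 0.070), with no filter (0.090) and without the 2 libraries holding liver transcripts (0.17), and at E9.5 in the compared libraries alone (0.14). At E5 and E6.5 0 of the 4 passed by edgeR or DESeq2, against 2.94% and 3.24% of all genes by edgeR, and 0 had an unadjusted p under 0.05. By DESeq2 0 passed at E8. At E9.5 against E5, NTN3, a secreted netrin, was higher by 1.53 ± 0.29 in the left gonad (adjusted p = 3.1e-04) and 1.57 ± 0.29 in the right gonad (adjusted p = 2.3e-04). NTNG1 was lower by -1.48 ± 0.12 in the left gonad (adjusted p = 4.9e-09) and -0.98 ± 0.12 in the right gonad (adjusted p = 1.3e-06).

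NTNG2 was likewise lower, by -0.85 in the left gonad (adjusted p = 0.016) and -1.12 in the right gonad (adjusted p = 0.0024). The left NTNG2 call was lost without E5 left library 3 (adjusted p = 0.095) or E9.5 left library 1 (0.068) or 2 (0.064). NTN4, a secreted netrin of basement membranes, passed in the right gonad, at 1.67 (adjusted p = 0.021). That call was lost without E5 right library 1 (adjusted p = 0.11) or 2 (0.055), and without E9.5 right library 2 the value was 0.44 (adjusted p = 0.52). It was also lost after adjustment for the mesonephros score (adjusted p = 0.15) and in the compared libraries alone (0.13). So 1 of 4 rose and 2 fell in the left gonad, and 2 rose and 2 fell in the right gonad. Among all genes 18.2% rose and 16.0% fell in the left gonad, and 21.5% rose and 16.1% fell in the right gonad. The median log2 change of the 4 was -0.49 on the left side, against 0.01 over all genes, and 0.30 on the right side, against 0.03 over all genes.

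RGMB was the only pathway gene that passed by edgeR as higher on the left at all 4 stages. Genes such as DRAXIN and RGMA also had higher left means at each stage, but did not pass at all 4. RGMB encodes a repulsive guidance molecule, a membrane-anchored ligand of neogenin that is also a co-receptor for bone morphogenetic proteins. It averaged 96.9 ± 20.1 CPM in left and 42.1 ± 8.14 CPM in right gonads at E5, and 175 ± 16.6 CPM in left and 75.5 ± 4.15 CPM in right gonads at E6.5 (SD, n = 3 each). At E8 it averaged 156 ± 2.01 CPM in left and 84.6 ± 12.7 CPM in right gonads, and at E9.5 168 ± 9.84 CPM in left and 95.4 ± 31.0 CPM in right gonads. The left side thus led from the first stage, when NTN1 did not differ beyond its spread. The gonadal identity markers also summed higher on the left at E5, to 1373 to 1866 CPM, against 1117 to 1344 CPM in right libraries. Of these 11 markers 4 passed as higher and 1 as lower by edgeR, against 1.92% and 1.02% of all genes. Their sums overlapped between the sides at later stages, but CYP19A1 alone ran from 1754 to 3446 CPM at E8 and E9.5. At E6.5, E8 and E9.5 3 of the 11 passed as higher, against 2.67%, 7.54% and 5.13% of all genes. At the same stages 1, 2 and 1 passed as lower, while 3.24%, 14.3% and 13.0% of all genes passed in either direction. The part of these markers in the RGMB value was not tested. The log2 differences were 1.20 ± 0.18 at E5 (SE, edgeR, adjusted p = 7.7e-04), 1.21 ± 0.18 at E6.5 (adjusted p = 6.2e-04), 0.89 ± 0.18 at E8 (adjusted p = 0.0031) and 0.82 ± 0.18 at E9.5 (adjusted p = 0.0064). All 4 calls held without any one library. The E8 call was lost after adjustment for the adrenal and chromaffin score (0.70, adjusted p = 0.11) and the E9.5 call after adjustment for the mesonephros score (0.56, adjusted p = 0.13).

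FLRT2 and LRRC4C were lower on the left at the later stages. FLRT2 encodes an adhesion protein that binds UNC5 receptors, and averaged 111.8 ± 1.70 CPM in left and 173 ± 8.65 CPM in right gonads at E8 (SD, n = 3 each). The log2 difference was -0.63 ± 0.09 at E8 (SE, adjusted p = 7.5e-05) and -0.50 ± 0.09 at E9.5 (adjusted p = 9.2e-04). LRRC4C, the netrin-G1 ligand and so a partner of NTNG1, averaged 13.2 ± 0.521 CPM in left and 23.0 ± 0.487 CPM in right gonads at E8. At E9.5 it averaged 8.97 ± 1.60 CPM in left and 19.1 ± 5.45 CPM in right gonads. Its log2 difference was -0.80 ± 0.18 at E8 (adjusted p = 0.0048) and -1.09 ± 0.18 at E9.5 (adjusted p = 6.1e-04). The calls of both genes held without any one library, though FLRT2 at E9.5 had an adjusted p of 0.055 in the compared libraries alone. Adjusted for the adrenal and chromaffin score, LRRC4C at E8 was -0.54 (adjusted p = 0.19).

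In the list of other ligands, co-receptors and antagonists, 17 of 19 names were tested. At E5 1 was higher on the left, against 1.92% of all genes, and 0 were lower. At E6.5 2 were higher, against 2.67% of all genes, and 0 lower. The second of these was DRAXIN, an antagonist that binds netrin 1 and DCC, with a log2 of 1.04 ± 0.27 (SE, adjusted p = 0.036), lost without E6.5 left library 1 (adjusted p = 0.092) or 2 (0.14) or right library 2 (0.12) or 3 (0.18). The DRAXIN call was also lost after adjustment for the mesonephros score (adjusted p = 0.11) or the adrenal and chromaffin score (0.051), with no filter (0.057) and in the compared libraries alone (0.23). At E8 2 were higher and 2 lower, against 7.54% and 6.71% of all genes. At E9.5 1 was higher and 3 lower, against 5.13% and 7.87%. Besides the genes above these were DSCAML1, a relative of the netrin receptor DSCAM, at E8 (2.97, adjusted p = 0.0020) and CBLN4, a cerebellin that binds DCC in mouse, at E9.5 (-3.26, adjusted p = 0.0053). Both are named after their values were seen and lie near or under 2 CPM, where few reads carry the fold. Adjusted for the adrenal and chromaffin score, DSCAML1 at E8 was 2.07 (adjusted p = 0.097). The list's median log2 difference was -0.11 at E8 and 0.11 at E9.5, against -0.04 and -0.02 over all genes.

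Over time the same list had 5 of 17 genes higher and 6 lower in the left gonad at E9.5 against E5, where 18.2% of all genes rose and 16.0% fell. On the right 3 were higher and 6 lower, against 21.5% and 16.1% of all genes. The largest fall was that of GPC3, a glypican of the cell surface, to 5.32 ± 1.21 CPM in left gonads at E9.5, against 120.3 ± 40.3 CPM in left gonads at E5 (SD, n = 3 each). Its log2 change was -4.49 ± 0.33 in the left gonad (SE, adjusted p = 2.1e-09) and -3.65 ± 0.32 in the right gonad (adjusted p = 2.8e-08). FLRT2 fell by 2.26 on the log2 scale in the left gonad (adjusted p = 5.0e-13) and by 1.87 in the right gonad (adjusted p = 5.9e-12). LRRC4C fell by 1.89 in the left gonad (adjusted p = 6.9e-08). SDC3, a syndecan, fell by 1.20 in the left gonad (adjusted p = 0.012) and by 1.39 in the right gonad (adjusted p = 0.0041). The left SDC3 call was lost without E9.5 left library 1 (adjusted p = 0.058) or 2 (0.055). ADORA2B, an adenosine receptor reported to bind netrin 1, rose by 1.31 in the right gonad (adjusted p = 0.0067).

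Cytoplasmic partners and effectors were compared between the sides in the same way. Of 26 genes tested, of 29 names, 0 passed at E5 and E6.5 by edgeR, where 4 and 2 had an unadjusted p under 0.05 and DESeq2 called 0 and 1. Of all genes 2.94% passed at E5 and 3.24% at E6.5 by edgeR, and no share of all genes was taken at an unadjusted p. At E8 1 was higher and 2 lower, against 7.54% and 6.71% of all genes, and at E9.5 1 was higher and 1 lower, against 5.13% and 7.87%. DESeq2 called 3 at E8 and 4 at E9.5, and by edgeR 6 and 8 had an unadjusted p under 0.05. TUBB3, a neuronal tubulin that binds DCC, was higher by 2.55 ± 0.73 (SE, adjusted p = 0.024), lost without E8 left library 3 (adjusted p = 0.095) or right library 1 (0.076) or 2 (0.11). After adjustment for the adrenal and chromaffin score TUBB3 was at -0.44 (adjusted p = 0.68) and after adjustment for the mesonephros score at 2.13 (adjusted p = 0.074), and it is also one of the neural markers. PAK1, a kinase acting downstream of RAC1 and CDC42, was lower on the left at E8, at -0.97 ± 0.21 (adjusted p = 0.0047), and at E9.5, at -0.85 ± 0.21 (adjusted p = 0.014). The E9.5 PAK1 call was lost without left library 3 (adjusted p = 0.074) or right library 1 (0.059), and the adrenal and chromaffin adjustment ended both PAK1 calls (adjusted p = 0.25 at E8 and 0.098 at E9.5). PIK3R1, a regulatory subunit of phosphoinositide 3-kinase, was lower at E8 (-0.48, adjusted p = 0.030), lost without any one of 5 of the 6 libraries (adjusted p up to 0.14, kept without left library 1). The PIK3R1 call was also lost after adjustment for the adrenal and chromaffin score (-0.23, adjusted p = 0.50) or the mesonephros score (-0.41, adjusted p = 0.098), and without the 2 libraries holding liver transcripts (adjusted p = 0.077). At E9.5 ABLIM3, an actin-binding protein, was higher (0.77, adjusted p = 0.030), lost without left library 3 or right library 2 (adjusted p = 0.12 each). The ABLIM3 call was also lost after adjustment for the mesonephros score (0.57, adjusted p = 0.26) or the adrenal and chromaffin score (0.64, adjusted p = 0.13), and in the compared libraries alone (adjusted p = 0.068).

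At E9.5 against E5, 3 of these 26 genes rose and 3 fell in the left gonad, against 18.2% and 16.0% of all genes. On the right 3 rose and 8 fell, against 21.5% and 16.1% of all genes. In the left gonad ABLIM3 rose by 2.21 (adjusted p = 4.0e-07) and ELMO1, a partner in RAC1 activation, by 0.93 (adjusted p = 4.3e-06) on the log2 scale. FYN, a kinase that phosphorylates DCC, fell by 0.84 (adjusted p = 4.1e-05) and ABLIM1 by 0.81 (adjusted p = 1.8e-04). In the right gonad ABLIM3 rose by 1.27 (adjusted p = 2.5e-04) and EZR, which links membranes to actin, by 0.93 (adjusted p = 0.0024). TRIM67, a ubiquitin ligase that binds DCC in mouse, fell by 2.55 in the right gonad (adjusted p = 8.6e-04), and FYN by 0.81 (adjusted p = 5.8e-05).

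The list of death partners of dependence receptors had 10 of 13 names tested and also holds BMP4 and LHX9, which are no such partners. At E5 1 was lower on the left, against 1.02% of all genes. This was FHL2, a LIM domain protein, which averaged 34.6 ± 2.39 CPM in left and 65.8 ± 5.07 CPM in right gonads (SD, n = 3 each). Its log2 difference was -0.93 ± 0.16 (SE, adjusted p = 0.0017), and it held without any one library. At E6.5 and E8 0 passed by edgeR or DESeq2, against 3.24% and 14.3% of all genes by edgeR. By edgeR 2 and 3 had an unadjusted p under 0.05, a level at which no share of all genes was taken. At E9.5 1 passed, against 13.0% of all genes. It was LHX9, a homeodomain factor of the early gonad, higher by 0.82 ± 0.18 (adjusted p = 0.0058), lost after adjustment for the mesonephros score (0.64, adjusted p = 0.081). At E9.5 against E5, 1 rose and 3 fell in the left gonad, against 18.2% and 16.0% of all genes, and 0 rose and 5 fell in the right gonad, against 21.5% and 16.1%. LHX9 and BMP4 were 2 of the falls on each side. DAPK1, a kinase that acts in UNC5B-dependent cell death, fell by 0.56 in the left gonad (adjusted p = 1.4e-04) and by 0.52 in the right gonad (adjusted p = 2.8e-04) on the log2 scale. FHL2 rose by 1.05 in the left gonad (adjusted p = 2.1e-05), and AATF, a transcription factor that counters apoptosis, fell by 0.40 in the right gonad (adjusted p = 0.013), a call lost after adjustment for the mesonephros score (adjusted p = 0.072) and in the compared libraries alone (0.062). LHX9 fell by 1.44 in the left gonad (adjusted p = 2.4e-06) and by 1.62 in the right gonad (adjusted p = 6.5e-07), and BMP4 fell by 0.99 in the left gonad (adjusted p = 0.0029) and by 0.79 in the right gonad (adjusted p = 0.013).

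**Figure D5:**
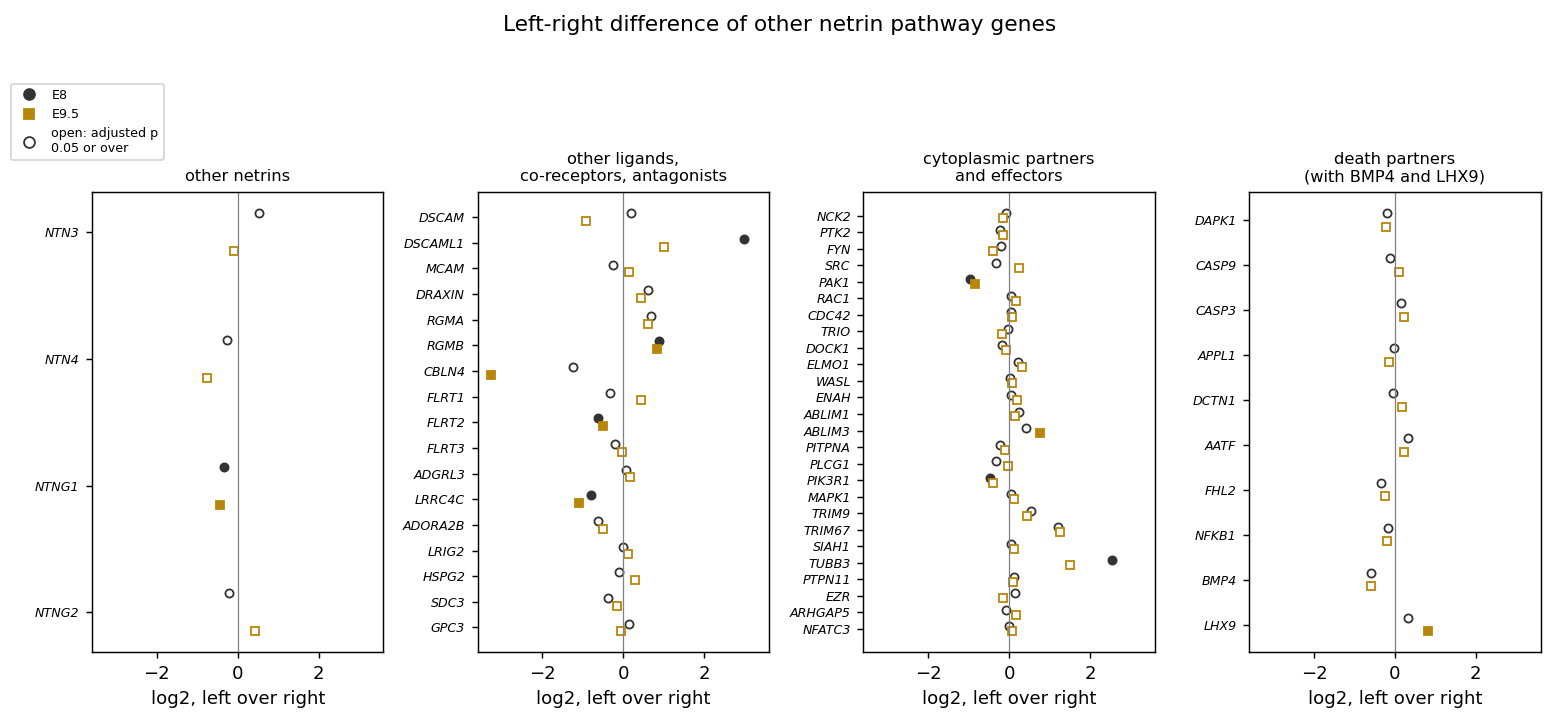
Fitted log2 fold change of left over right at E8 (circles) and E9.5 (squares) for the tested genes of 4 pathway lists. Filled symbols have an adjusted p under 0.05; RGMB is higher on the left at both stages, and FLRT2, LRRC4C, NTNG1 and PAK1 are lower on the left at both stages.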

How the data were processed

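The deposited file holds read counts per gene for 24 libraries, as whole numbers not normalised by the authors. Per the submitters' processing notes, Trim Galore 0.6.7, STAR 2.7.10a, HTSeq 2.0.0 and the build GRCg6a were used. No annotation, strand option or counting mode is named there.

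Counts were analysed in R 4.3.3 with edgeR 4.0.16 and limma 3.58.1. Genes were kept by filterByExpr (minimum count 10, minimum total 15). TMM scaling and 1 quasi-likelihood fit with 8 group means over all 24 libraries gave each contrast, with Benjamini-Hochberg adjustment over 16694 genes and a threshold of 0.05. Each SE comes from the log2 value and its F statistic. The tests were tried on simulated independent counts with changes in E8 left alone, which held no pairing, tissue mixture or outlying library. Likeness used log2 CPM with a prior count of 2. Intervals of log2 values cover 95%.

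Named genes are the members, whether or not they passed; in each pathway list, up to 4 called genes with the largest change and a mean of at least 2 CPM; and the 8 genes most like NTN1. Genes were matched by symbol alone. RefSeq gives NTN1 as the symbol of netrin 1 and also as an older name of NTN3, so the row was taken as the table names it. Results of 1 listed gene are not reported here. The members, lists and tests were chosen with earlier results of these data known. Library pairs within a group had a chi-square per degree of freedom of 7.91 to 58.1, more than counting noise. None was therefore taken as the same library read again. Repeated preparations cannot be told from separate embryos in this way. Alternatives were RLE scaling, no filter, DESeq2 1.42.0, marker scores as covariates, a replicate block, the compared libraries alone, and leaving out libraries. The block was stage with replicate number for side contrasts, and replicate number alone for contrasts over time.

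Whether replicate numbers pair left with right was checked by the correlation of same-numbered libraries' deviations from their group means. It exceeded 0.1 in 9 of 12 pairs and in every pair at E5 and E9.5, and ran from -0.16 to 0.53.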

Additional observations from a re-analysis of the deposited data

Results flagged for a closer look

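LRRC4C, which encodes the netrin-G1 ligand, stood out because its left-right difference itself changed between stages. The log2 difference of left over right at E9.5 against that at E5 was -0.98 ± 0.25 (SE, edgeR, adjusted p = 0.036), where 2.20% of all genes tested passed in either direction. LRRC4C averaged 33.3 ± 5.74 CPM in left and 35.9 ± 1.76 CPM in right gonads at E5 (SD, n = 3 each). At E9.5 it averaged 8.97 ± 1.60 CPM in left and 19.1 ± 5.45 CPM in right gonads. The call was lost in 10 of 31 other settings, with adjusted p-values of 0.10 with the mesonephros score as a covariate, 0.22 with the adrenal and chromaffin score, and up to 0.12 without E5 left library 1 or 2, E5 right library 1, 2 or 3, E9.5 left library 1 or 3, or E9.5 right library 1. The part of other tissues in it was not tested further.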

How the results depend on the processing

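The number of receptors called for left against right at E8 was 1 after adjustment for the mesonephros score and 1 after adjustment for the adrenal and chromaffin score, and 0 to 2 when 1 library was left out. For E9.5 against E5 it was 1 to 2 on the left when 1 library was left out. In the right gonad it was 2 with RLE scaling, the adrenal and chromaffin score, the replicate block, DESeq2 or without the 2 libraries with liver transcripts, 0 in the compared libraries alone and 1 to 3 when 1 library was left out. UNC5B was the added call in each setting that gave 2. The other counts held within 1.5 times.

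Replicate numbers did not pair every library of E6.5 and E8, and 19 of 24 libraries correlated best with their own number. The main fit did not use this pairing. For left against right, 3413 genes passed at E8 and 3343 at E9.5 with the block, against 2379 and 2171 without it. With the replicate block UNC5C passed at E8 (-0.40, adjusted p = 0.034), as it did in the compared libraries alone (-0.37, adjusted p = 0.043). For contrasts over time the block was the replicate number shared across stages, a pairing that was not checked. With that block UNC5B passed the threshold at E9.5 against E5 on the left (-0.40, adjusted p = 0.044) and the right (-0.39, adjusted p = 0.041). Neither block changed any other call of a member.

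NTN1 at E9.5 against E5 was 6.62 on the left without E5 left library 3. On the right it ran from -0.19, without E9.5 right library 2, to 1.15. The left-right log2 of NTN1 ran from -1.04 to -0.22 at E5, 1.47 to 2.67 at E6.5, 4.75 to 5.44 at E8 and 4.43 to 5.77 at E9.5 when 1 library was left out. Sign changes otherwise met values that had not passed, apart from TUBB3 at E8 (-0.44 with the adrenal and chromaffin score). NEO1 at E6.5 was -0.17 with the mesonephros score, -0.068 with the adrenal and chromaffin score and -0.042 without the libraries with liver transcripts. NEO1 at E9.5 was -0.10 with the mesonephros score. UNC5D with the adrenal and chromaffin score was -0.14 at E6.5, -1.10 at E8 and -1.0 on the left side at E9.5 against E5. UNC5D at E9.5 against E5 in the right gonad was -0.022 with RLE scaling, in the compared libraries alone or with DESeq2. It was -0.015 without a filter, -0.031 with the mesonephros score, -0.027 with the replicate block, -0.10 for the adrenal and chromaffin score and -0.043 without the libraries with liver transcripts.

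When 1 library was left out, NEO1 ran from -0.23 to 0.15 at E5, from -0.042 to 0.21 at E6.5 and, on the left side, from -0.14 to 0.092 at E9.5 against E5. Its right-side value passed without E5 right library 2 or E9.5 right library 3 (-0.50 and -0.53). UNC5A ran from -0.055 to 0.42 at E9.5 against E5 in the right gonad, and UNC5C from -0.43 to 0.15 at E9.5. UNC5D ran from -0.78 to 0.30 at E9.5, and at E9.5 against E5 from -0.40 to 0.66 on the left side and from -0.22 to 0.29 on the right. Over all single genes named, members and others, 1213 values under other settings kept sign and call, 97 lost the call with the same sign and 20 gained it. NTN1 has no call, and its values among the 1213 kept their sign and moved by less than the SD within groups. Causes were not tested. No scaling moved the median of all genes by over 0.1. With 3 libraries a group and few NTN1 reads on the right, fold sizes there are imprecise.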
